A study of Mus musculus with 10 samples.

Results

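The genes described here encode 9 proteins that build the node of Ranvier and its flanks on myelinated axons. They were chosen by name: *Nfasc* (ENSMUSG00000026442) and *Nrcam* (ENSMUSG00000020598), *Ank3* (ENSMUSG00000069601) and *Sptbn4* (ENSMUSG00000011751), *Cntn1* (ENSMUSG00000055022), *Cntnap1* (ENSMUSG00000017167) and *Epb41l3* (ENSMUSG00000024044), *Cntn2* (ENSMUSG00000053024) and *Cntnap2* (ENSMUSG00000039419). All 9 matched 1 gene identifier each among the 55414 in the count files, and all 9 passed the filter on low counts that left 17490 genes for testing. The measurements came from dorsal root ganglia (DRG), the ganglia that hold the cell bodies of somatosensory neurons and their glia, collected at E18.5 and profiled by bulk RNA-sequencing. Control embryos (n = 5), which the paper calls littermates, carried Dach1 flox/flox alleles without Cre (Wnt1+/+). *WD1* cKO embryos (n = 5) were Wnt1Cre/+ and Dach1 flox/flox, so that the floxed exon of *Dach1*, a transcription factor gene, was removed from the neural crest, the source of both the neurons and the glia of the ganglion. The floxed mice were of mixed C57Bl/6J and CD1 background, and *WD1* cKO mice do not survive after birth. The comparison addressed which neuron classes of the ganglion depend on *Dach1* before birth.

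At the node, the adhesion molecules neurofascin and NrCAM bind the Schwann cell protein gliomedin and are held from inside the axon by ankyrin-G (*Ank3*) and beta-IV spectrin (*Sptbn4*), which also hold sodium and potassium channels. At the paranode beside it, contactin-1 and Caspr (*Cntnap1*) on the axon meet a glial form of neurofascin to seal the myelin loops to the axon, and the adaptor encoded by *Epb41l3* ties the axonal complex to the spectrin skeleton. At the juxtaparanode, contactin-2 and Caspr2 (*Cntnap2*) hold the shaker-type potassium channels under the myelin. In peripheral nerves of the mouse these domains assemble around and after birth, as Schwann cells begin to myelinate.

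Some properties of the libraries bear on all the values. Total counts per library ran from 20465132 to 27528784 in control (median 22544236) and from 19757596 to 34796562 in *WD1* cKO embryos (median 26377947). The genotype entry of the labels was exchanged between the groups, and the titles were followed. The *Dach1* level was 35.1, 38.5, 41.6, 37.1 and 37.4 CPM (read counts scaled to a common library size) in control replicates 1 to 5 and 19.1, 20.7, 19.5, 20.3 and 20.4 CPM in *WD1* cKO replicates 1 to 5, without overlap between the titled groups. Its log2 fold change was -0.92 ± 0.05 (SE, adjusted p = 5.48e-06, edgeR quasi-likelihood test, Benjamini-Hochberg adjusted), with *WD1* cKO lower. The labelled tissue was checked with markers fixed for each cell type: the 10 neuron markers summed to 9470 to 10400 CPM and the 10 glia markers to 1130 to 1350 CPM. Control replicate 3 stood apart in 5 spinal cord markers, which summed to 12.5 CPM there and to 0.0736 to 1.13 CPM in the other 9 libraries. The libraries numbered 4 and 5 in both groups stood apart in 5 blood markers, with a sum of 59.6 to 80.7 CPM against 192 to 1090 CPM in those numbered 1 to 3. In 4 endothelial markers their sum was 213 to 225 against 237 to 266 CPM. Of these markers only *Cdh5* lay apart by itself, at 76.6 to 95.6 against 99.8 to 119 CPM, while *Pecam1*, *Kdr* and *Tek* overlapped. The labels do not say what a number shared by a control and a *WD1* cKO library stands for.

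No difference between the genotypes was detected for the node, paranode and juxtaparanode genes. By the edgeR quasi-likelihood test, 0 of 9 had a Benjamini-Hochberg adjusted p below 0.05, where 7 of the 17490 genes tested (0.04%) did, *Dach1* among them. At an unadjusted p below 0.05 the count was also 0 of 9 (4.5% of all genes), and DESeq2's Wald test likewise gave 0 at either threshold (0.109% and 3.68% of all genes), with a lowest unadjusted p of 0.167. The study's own cut-off was an unadjusted p below 0.005 with an absolute log2 fold change above 0.15. Applied here to edgeR's test, where the study used DESeq2, it gave 0 of 9 against 0.383% of all genes. The 2 groups of libraries overlapped for each of the 9 genes, while 1.06% of all genes tested had groups that did not overlap. The median log2 fold change over the 9 was 0.015, beside 0.000224 over all genes tested, and the median of its absolute value was 0.0375, beside 0.0527. In 6 of 9 the *WD1* cKO estimate was the higher one (50.1% of all genes) and in 3 of 9 the lower one (49.9%). Together the 95% intervals of the 9 genes spanned 0.849-fold to 1.18-fold. Fewer cells that express a gene and less RNA per cell cannot be told apart in bulk ganglia.

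**Figure D1:**
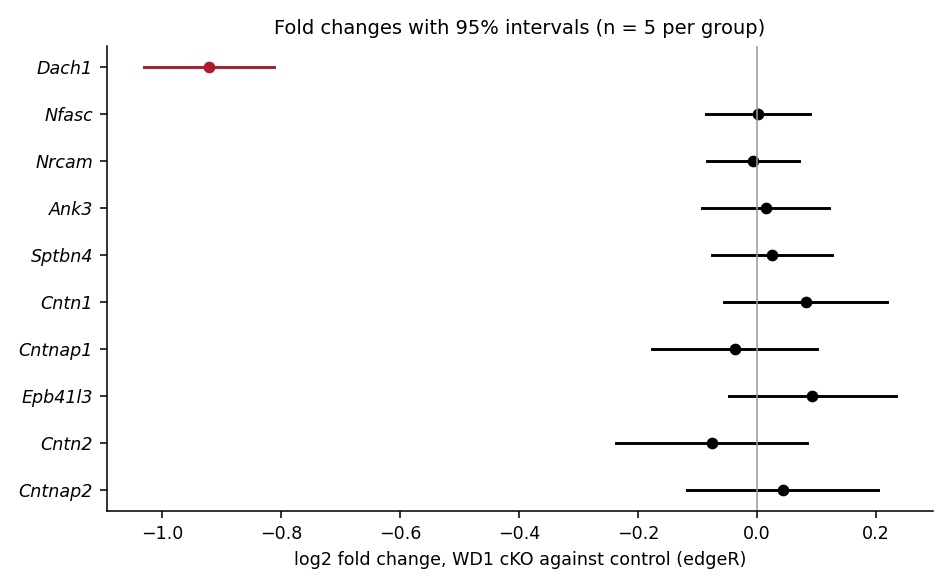
Log2 fold change of *WD1* cKO against control (horizontal axis) for *Dach1* and the 9 node, paranode and juxtaparanode genes (vertical axis), with points for edgeR's estimates and lines for their 95% intervals, n = 5 embryos per group. The 9 intervals all span 0 and lie between -0.236 and 0.233, while *Dach1* lies near -0.92.

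The nodal adhesion genes varied little between embryos. *Nfasc*, on chromosome 1, encodes neurofascin, whose neuronal form sits at the node and whose glial form sits at the paranode, and counts per gene cannot separate them. Its level was 134, 141, 129, 139 and 144 CPM in control replicates 1 to 5 and 139, 148, 133, 131 and 137 CPM in *WD1* cKO replicates 1 to 5. The lowest library was a control and the highest a *WD1* cKO, and the ranges lay almost on top of each other. The log2 fold change was 0.0021 ± 0.0401 (SE), with a 95% interval from -0.0851 to 0.0893 (unadjusted p = 0.959, edgeR; exact permutation p = 0.984, two-sided). *Nrcam*, on chromosome 12, encodes the second nodal adhesion molecule of the L1 family. It was measured at 151, 160, 150, 154 and 159 CPM in control and at 159, 159, 144, 151 and 158 CPM in *WD1* cKO embryos. The means were 155 ± 4.48 and 154 ± 6.53 CPM (SD, n = 5), and the coefficient of variation in control, 2.89%, was the lowest among the 9 genes in either group. Its log2 fold change was -0.0068 ± 0.0356 (SE; 95% interval -0.0843 to 0.0708; exact permutation p = 0.778), so the SE was also the smallest of the set.

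The axonal scaffold genes showed the same picture at different levels. *Ank3*, on chromosome 10, encodes ankyrin-G, which gathers the nodal proteins and also organises the axon initial segment. In control embryos its level was 604, 598, 565, 635 and 655 CPM, and in *WD1* cKO embryos 601, 627, 592, 673 and 597 CPM. The lowest value was that of control replicate 3 and the highest that of *WD1* cKO replicate 4, with the rest of the groups interleaved. The estimated log2 fold change was 0.015 ± 0.0492 (SE; 95% interval -0.0919 to 0.122; exact permutation p = 0.762). *Sptbn4*, on chromosome 7, encodes the beta-IV spectrin that links ankyrin-G to actin, and was the least counted of the 9, with 1120 to 2177 reads per library. Its level was 58.2, 55.4, 57.5, 53.4 and 57.8 CPM in control and 54.1, 58.9, 54.4, 56.9 and 62.8 CPM in *WD1* cKO embryos. A single *WD1* cKO library, replicate 5, lay above all others, and the lowest was control replicate 4. The log2 fold change was 0.0255 ± 0.0464 (SE; 95% interval -0.0754 to 0.126; exact permutation p = 0.651).

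Among the paranodal genes the estimates were larger, as was the spread between embryos. *Cntn1*, on chromosome 15, encodes contactin-1, the lipid-anchored axonal partner of Caspr. It was present at 509, 502, 464, 557 and 567 CPM in control and at 529, 541, 500, 589 and 592 CPM in *WD1* cKO embryos. In both groups the libraries numbered 4 and 5 were the highest, and the groups overlapped. Its log2 fold change was 0.082 ± 0.0631 (SE; 95% interval -0.0553 to 0.219; exact permutation p = 0.278). *Epb41l3*, on chromosome 17, had the largest positive estimate of the 9 genes. Its level was 589, 608, 559, 680 and 673 CPM in control and 628, 681, 601, 691 and 715 CPM in *WD1* cKO embryos. The higher 2 control libraries, numbered 4 and 5, lay above the lower 2 *WD1* cKO libraries, numbered 1 and 3, so the groups overlapped. The estimated log2 fold change was 0.0932 ± 0.0642 (SE; 95% interval -0.0464 to 0.233), with the lowest p of the set (unadjusted p = 0.172, edgeR; exact permutation p = 0.19).

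*Cntnap1*, on chromosome 11, encodes Caspr, the transmembrane partner of contactin-1 at the paranode. Control embryos had 243, 254, 291, 306 and 294 CPM, and *WD1* cKO embryos had 264, 289, 255, 276 and 269 CPM. The 2 lowest and the 3 highest libraries were all controls, so the *WD1* cKO values lay inside the control range. The coefficient of variation was 9.95% in control and 4.76% in *WD1* cKO embryos. The log2 fold change was -0.0375 ± 0.0635 (SE; 95% interval -0.176 to 0.101; exact permutation p = 0.627). Exons of *Cntnap1* overlap those of *Plekhh3* on the opposite strand over 233 bases in the GENCODE annotation of GRCm38. *Plekhh3* held 6299 reads over the 10 libraries, and since the strand setting of the counting is not given in the sources used here, reads from the overlap cannot be assigned.

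The juxtaparanodal partners varied in opposite directions across the libraries. *Cntn2*, on chromosome 1, encodes contactin-2 (TAG-1), which is present on growing sensory axons before it is found at juxtaparanodes. Its level was 525, 560, 543, 480 and 486 CPM in control and 566, 509, 506, 459 and 421 CPM in *WD1* cKO embryos. The lowest 4 libraries were those numbered 4 and 5 in both groups, and the highest was *WD1* cKO replicate 1. Its log2 fold change was -0.076 ± 0.0736 (SE; 95% interval -0.236 to 0.0841; exact permutation p = 0.381), the largest negative estimate of the set. *Cntnap2*, on chromosome 6, encodes Caspr2, the partner of contactin-2 in holding potassium channels. It was measured at 162, 175, 156, 198 and 193 CPM in control and at 185, 179, 160, 186 and 201 CPM in *WD1* cKO embryos. Here the libraries numbered 4 and 5 were the highest of each group, the reverse of *Cntn2*. The estimated log2 fold change was 0.0433 ± 0.0736 (SE; 95% interval -0.117 to 0.203; exact permutation p = 0.611). The adjusted p of each of the 9 genes was 1.00 by edgeR's quasi-likelihood test, and the smallest exact p that 5 against 5 libraries allow is 0.00794.

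**Figure D2:**
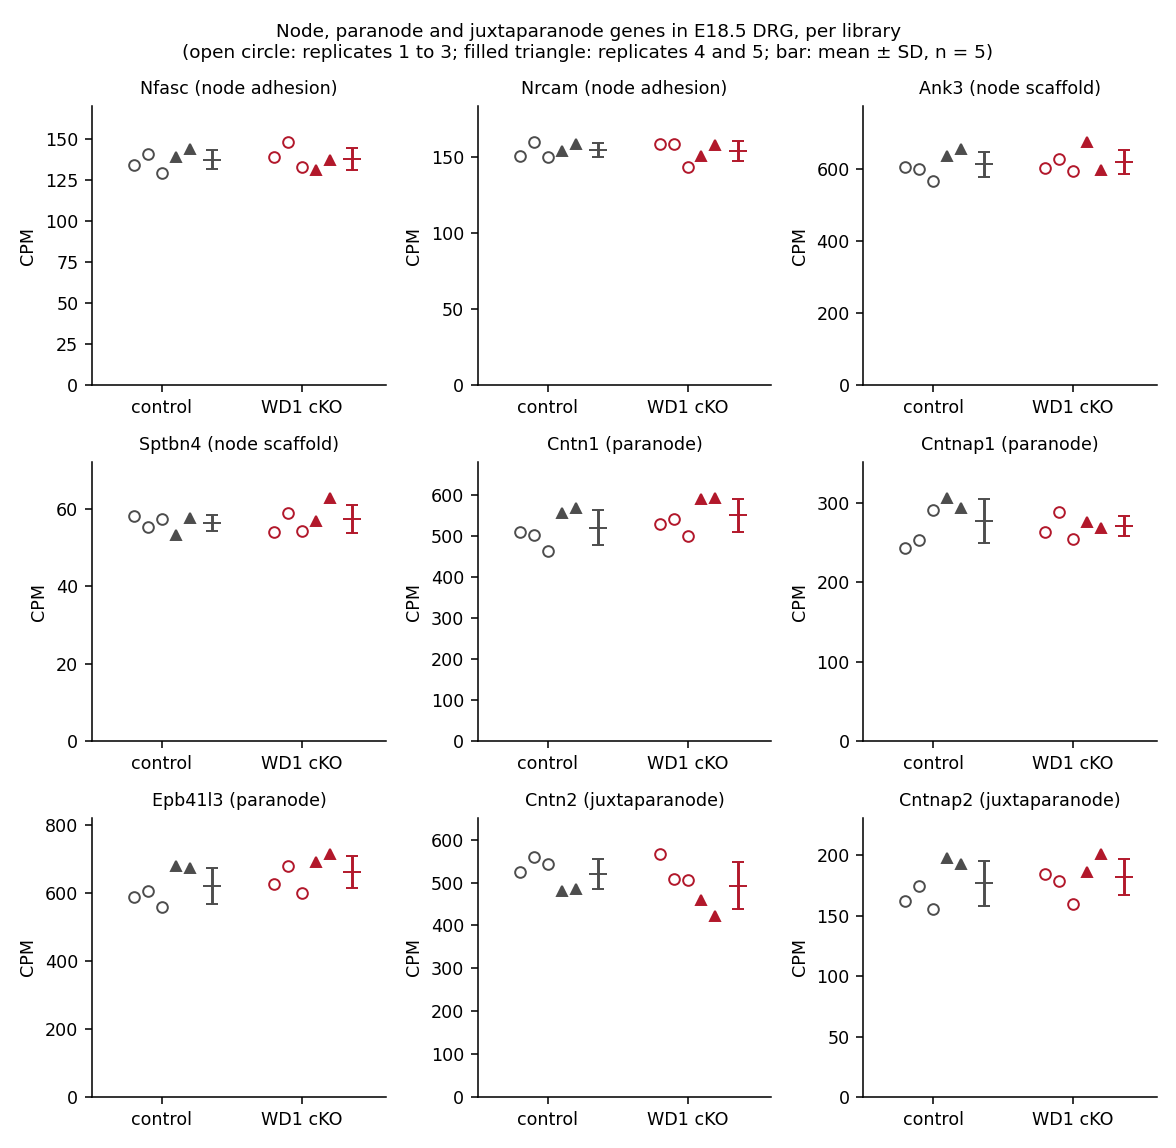
Level of each of the 9 genes in CPM (vertical axis, from 0) in the 5 control and 5 *WD1* cKO libraries, with open circles for replicates 1 to 3, filled triangles for replicates 4 and 5, and bars for the group mean ± SD. The groups overlap in all 9 panels, and the triangles lie above every circle for *Cntn1* and *Cntnap2* and below every circle for *Cntn2*.

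The 9 genes formed a high and a lower tier when their levels were set per length. Dividing CPM by the exon length of each gene gave control means of 55.8 ± 3.76 CPM per kilobase (SD, n = 5) for *Cntn2*, 55.1 ± 4.47 for *Cntn1*, 52.2 ± 4.45 for *Epb41l3* and 47.3 ± 4.7 for *Cntnap1*. Each of these overlapped its neighbour in the order over the control libraries. *Ank3* (17.6 ± 1.0 CPM per kilobase) and *Cntnap2* (17.2 ± 1.81) followed, overlapping each other and lying below all control values of *Cntnap1*. *Nrcam* (11.6 ± 0.335), *Nfasc* (9.72 ± 0.401) and *Sptbn4* (5.91 ± 0.214) came last, each apart from the one before it. Among 17447 genes ranked per length by their mean over all 10 libraries, the 9 lay between the 57.0th percentile (*Sptbn4*) and the 96.5th (*Cntn1*). The order thus put the axonal paranode genes and *Cntn2* above the genes of the node itself. The scale divides by all annotated exons of a gene, which is longer than a single transcript for *Ank3* and can be for the other genes too.

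**Figure D3:**
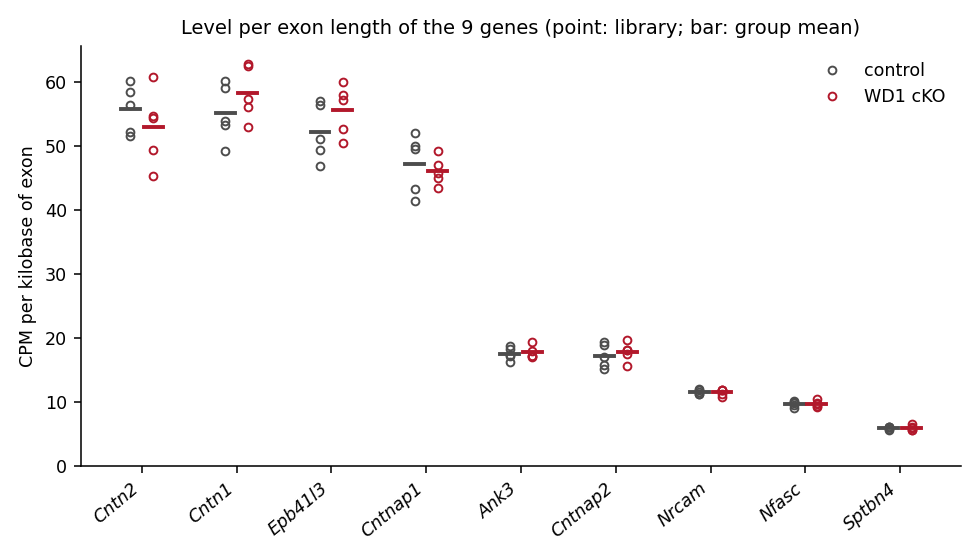
Level of the 9 genes in CPM per kilobase of exon (vertical axis, from 0), with a point for each library and a bar for each group mean, control in grey and *WD1* cKO in red. *Cntn2*, *Cntn1*, *Epb41l3* and *Cntnap1* lie above 40 and the other 5 genes below 20 in all libraries.

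Ratios of partner genes within a library do not depend on how libraries are scaled. The count ratio of *Nfasc* to *Nrcam* was 0.887 ± 0.0172 (SD, n = 5) in control and 0.893 ± 0.0322 in *WD1* cKO embryos, and that of *Ank3* to *Sptbn4* was 10.8 ± 0.808 and 10.8 ± 0.848. The means of these nodal pairs differed between the genotypes by less than the SD within a group. The ratio of *Cntn1* to *Cntnap1* at the paranode was 1.88 ± 0.191 in control and 2.03 ± 0.135 in *WD1* cKO embryos, with overlapping groups. For *Cntn2* to *Cntnap2* at the juxtaparanode it was 2.98 ± 0.473 and 2.73 ± 0.439. Between the 2 Caspr genes, *Cntnap1* to *Cntnap2*, it was 1.58 ± 0.168 and 1.49 ± 0.117. Between the contactins, *Cntn1* to *Cntn2*, it was 1.01 ± 0.146 and 1.13 ± 0.202. The groups overlapped in all 6 ratios, and the SD within a group was largest relative to the mean where *Cntn2* entered.

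**Figure D4:**
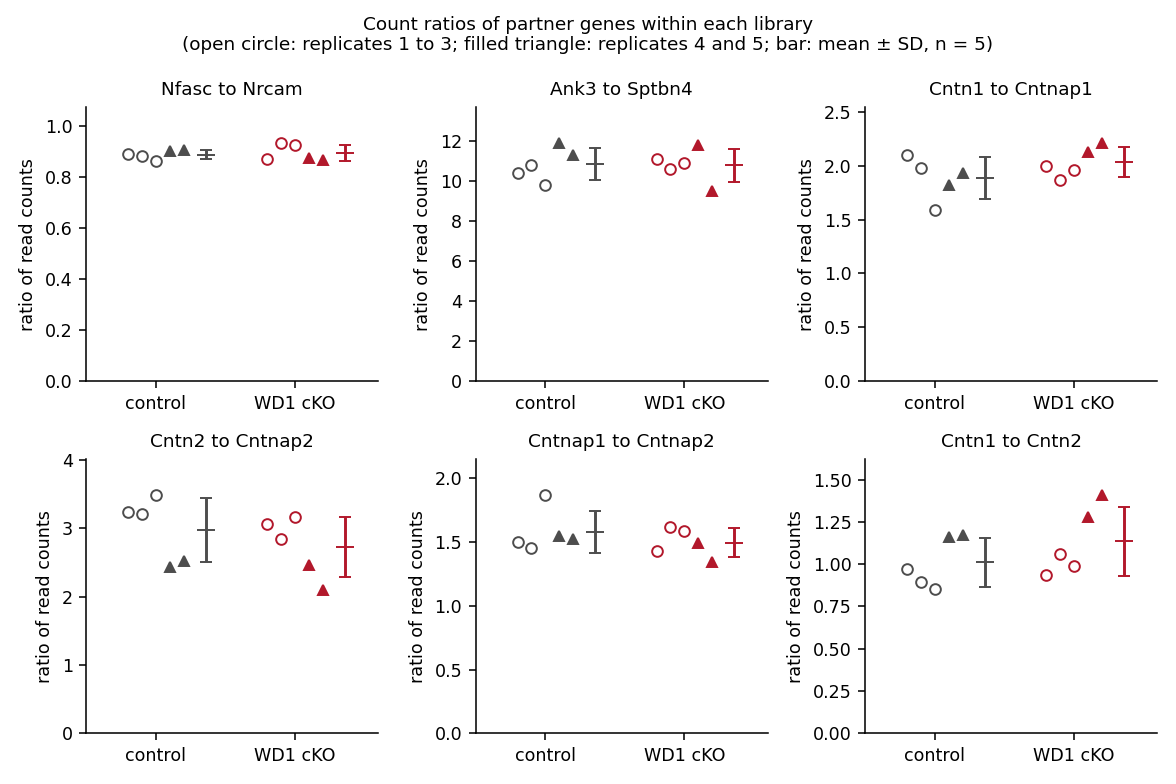
Ratio of read counts of partner genes (vertical axis, from 0) in each control and *WD1* cKO library, with open circles for replicates 1 to 3, filled triangles for replicates 4 and 5, and bars for the group mean ± SD. The ratio of *Cntn1* to *Cntn2* is 0.854 to 1.06 in the circles and 1.16 to 1.41 in the triangles. The genotypes are mixed among the circles, and the triangles are 1.16 and 1.17 in control and 1.28 and 1.41 in *WD1* cKO embryos.

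Levels of *Cntn1*, *Cntnap2* and *Cntn2* differed by replicate number in both genotypes. *Cntn1* was 464 to 541 CPM in the 6 libraries numbered 1 to 3 and 557 to 592 CPM in the 4 numbered 4 or 5. *Cntnap2* was 156 to 185 CPM against 186 to 201 CPM. *Cntn2* ran the other way, at 506 to 566 CPM against 421 to 486 CPM. For these 3 genes no library of one set reached into the other, though for *Cntnap2* the gap was narrow, 185 against 186 CPM. Among the libraries numbered 4 or 5, *Cntn1* was lower in the 2 controls and *Cntn2* higher, whereas the genotypes overlapped for *Cntnap2*. Thus 2 of 9 lay wholly above, where 6.11% of all genes tested did, and 1 of 9 wholly below, where 5.07% did. *Epb41l3* overlapped by a narrow margin, at 559 to 681 against 673 to 715 CPM, and the other 5 genes overlapped more widely. The count ratio of *Cntn2* to *Cntnap2* was accordingly 2.85 to 3.49 in the libraries numbered 1 to 3 and 2.10 to 2.52 in those numbered 4 or 5. This split was chosen with the values known, so no test is given, and what part the lower blood and endothelial marker sums of the libraries numbered 4 and 5 had in it was not tested.

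Over the 10 libraries, Pearson's r of log2 CPM was 0.959 between *Cntn1* and *Epb41l3*, 0.901 between *Epb41l3* and *Cntnap2*, and 0.887 between *Cntn1* and *Cntnap2*. *Cntn2* had r = -0.794 with *Cntn1*, -0.77 with *Epb41l3* and -0.602 with its partner *Cntnap2*. *Nfasc* and *Nrcam* had r = 0.759, and *Cntn1* and its partner *Cntnap1* only 0.278. These are descriptions over libraries that share the replicate-number pattern. The promoters of the 3 genes that lay apart by replicate number are shown so that the sequence around their starts can be read beside their levels. Each is the most upstream RefSeq promoter window of the gene in GRCm38.p6, from 250 bases before to 50 bases after a transcription start, written 5′ to 3′ on the gene's strand. They are chr15:92050915-92051214 (+ strand) for *Cntn1*, chr6:45059811-45060110 (+ strand) for *Cntnap2* and chr1:132542891-132543190 (- strand) for *Cntn2*. Capitals mark matches, on either strand, to any of 5 motifs. The GC box, bound by Sp-type factors, was searched as GGGCGG. The box that is bound by NF-Y and named after its letters was searched as CCAAT. The TATA box, which positions the start of transcription in some promoters, was searched as TATAAA. The motif of Sox factors, a family that includes the Schwann cell factor Sox10, was searched as ACAAAG. The motif of Egr factors, a family that includes the myelin regulator encoded by *Egr2*, was searched as GCGTGGGCG. None of these letters overlap each other in the windows shown.
Cntn1: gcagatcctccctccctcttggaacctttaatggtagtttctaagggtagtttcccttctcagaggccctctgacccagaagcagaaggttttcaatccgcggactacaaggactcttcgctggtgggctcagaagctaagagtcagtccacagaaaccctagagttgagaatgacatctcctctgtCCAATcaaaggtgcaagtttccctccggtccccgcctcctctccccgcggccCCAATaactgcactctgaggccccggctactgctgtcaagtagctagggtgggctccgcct
Cntnap2: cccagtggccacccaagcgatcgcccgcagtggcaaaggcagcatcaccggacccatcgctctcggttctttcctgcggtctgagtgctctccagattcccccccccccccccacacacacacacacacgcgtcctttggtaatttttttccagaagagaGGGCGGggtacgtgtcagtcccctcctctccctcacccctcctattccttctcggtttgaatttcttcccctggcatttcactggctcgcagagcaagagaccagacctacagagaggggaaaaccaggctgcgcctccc
Cntn2: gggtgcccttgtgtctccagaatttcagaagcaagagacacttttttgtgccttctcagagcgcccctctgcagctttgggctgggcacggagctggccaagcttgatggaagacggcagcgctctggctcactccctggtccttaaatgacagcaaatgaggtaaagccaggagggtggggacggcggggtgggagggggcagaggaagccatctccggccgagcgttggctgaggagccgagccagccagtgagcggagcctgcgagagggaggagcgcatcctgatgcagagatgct
The *Cntn1* window held 2 CCAAT matches, the *Cntnap2* window 1 GC box, and the *Cntn2* window none of the 5 motifs. The base composition was 55.3% G and C in the window of *Cntn1*, 59.7% in that of *Cntnap2* and 61.3% in that of *Cntn2*. Of all 32851 promoter windows of this length, 35.7% held the GC box, 37.4% the CCAAT box, 13.6% the TATA box, 18.7% the Sox motif and 0.612% the Egr motif. Windows were at hand for 7 of the 9 genes, 16 windows in all, of which 9 held a GC box, 6 a CCAAT box, 1 a TATA box, and 0 a Sox or an Egr motif. A match is only a match of letters, and its absence says only that these letters are not in the window.

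The other genes of node assembly and first myelination gave 0 calls in either direction among the 67 of 68 listed genes that passed the filter, by the edgeR quasi-likelihood test (Benjamini-Hochberg adjusted p, 0.04% of all genes called). At an unadjusted p below 0.05 there were 2 (4.5% of all genes tested), and DESeq2's Wald test gave 0 adjusted calls (0.109% of all genes) and 3 at that unadjusted p (3.68%). One of the 2 was *Cadm1*, which encodes an adhesion molecule along the internode, at 287 ± 10.6 CPM in control and 272 ± 5.43 in *WD1* cKO embryos (log2 fold change -0.0771 ± 0.0336, SE; unadjusted p = 0.0403, adjusted p = 1.00). The other was *Ezr*, which encodes ezrin of the Schwann cell microvilli over the node, at 80.6 ± 2.8 and 85.4 ± 2.41 CPM (log2 fold change 0.0835 ± 0.0332, SE; unadjusted p = 0.0271, adjusted p = 1.00). In 0 of the 67 tested did the groups of libraries stand apart (1.06% of all genes tested). The median log2 fold change over the 67 was 0.0258.

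Among 8 matrix genes of the node, the most abundant per length in control embryos was *Dag1*, for the laminin receptor dystroglycan, at 227 ± 16.5 CPM, and its *WD1* cKO level was 223 ± 13.8 CPM. The least abundant of those tested was *Gldn*, for gliomedin, the Schwann cell ligand of neurofascin, at 1.23 ± 0.613 CPM in control and 1.72 ± 0.818 in *WD1* cKO embryos. *Hapln2*, a link protein gene of central nodes, did not pass the filter (0.179 and 0.155 CPM). Over the 7 tested, the median log2 fold change was -0.0231.

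Of the 9 nodal channel genes, *Kcnk2*, for a potassium leak channel, was the least abundant per length, at 16.9 ± 2.8 and 17.5 ± 2.09 CPM. Over that list the median log2 fold change was 0.0153. Of the 8 juxtaparanodal channel and scaffold genes, *Kcnab2*, for the beta subunit of shaker-type channels, was at 384 ± 48.6 and 368 ± 22.2 CPM, and *Dlg2*, for a scaffold protein, at 36.5 ± 3.32 and 39.8 ± 5.02 CPM. Their median log2 fold change was 0.00085.

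Relatives of the 9 genes were measured as well. *Sptan1*, for the alpha spectrin that pairs with beta-IV spectrin, stood at 3030 ± 178 CPM in control and 3050 ± 144 in *WD1* cKO embryos, and *Epb41*, a relative of *Epb41l3*, at 110 ± 8.83 and 111 ± 6.68 CPM. The 8 spectrin, ankyrin and band-protein relatives had a median of 0.00415 on the log2 fold scale. *L1cam*, for an axonal adhesion molecule related to NrCAM, was at 1010 ± 63.1 and 967 ± 34.6 CPM, and *Cntnap5b*, a Caspr relative, at 6.05 ± 0.789 and 5.45 ± 0.474 CPM. The 11 L1, contactin and Caspr relatives had a median of 0.0112.

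On the Schwann cell side, *Cadm3*, for an axonal partner in internode adhesion, was at 524 ± 34.8 and 497 ± 24.3 CPM and *Mag*, for myelin-associated glycoprotein, at 10.4 ± 3.25 and 12.9 ± 5.87 CPM. Over the 5 internode genes the median log2 fold change was -0.019. *Msn*, for moesin of the microvilli, was at 311 ± 16.7 and 317 ± 7.4 CPM, in a list of 4 with a median of 0.0314. *Pmp22*, for a compact myelin protein, was at 300 ± 63.5 and 321 ± 75.9 CPM, and *Gjb1*, for a gap junction protein of myelin, at 0.429 ± 0.325 and 0.454 ± 0.0995 CPM. The 15 myelin and promyelinating genes had the highest median of the 8 lists on the log2 fold scale, 0.0883, and 0 of 15 had an unadjusted p below 0.05.

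The replicate-number pattern extended to these genes. In 18 of the 67 tested, all 4 libraries numbered 4 or 5 lay above the 6 numbered 1 to 3 (6.11% of all genes tested), and in 1, *Slc9a3r1*, a microvillar scaffold gene, they lay below (5.07%). The genes named here for this pattern were chosen after their values were seen. *Gldn* was 0.683 to 1.29 CPM in the libraries numbered 1 to 3 and 1.80 to 2.69 CPM in those numbered 4 or 5. *Scn4b*, for a sodium channel beta subunit, was 24.0 to 30.1 against 41.8 to 55.5 CPM, and *Kcnq3*, for a potassium channel subunit, 52.8 to 59.5 against 67.0 to 77.3 CPM. Of the 15 myelin genes 6 lay wholly above, among them *Cldn19*, for a tight junction protein of myelin, at 2.36 to 11.2 against 13.4 to 24.1 CPM. *Kcnab2* and *Adam22*, a juxtaparanodal receptor gene at 204 to 257 against 283 to 308 CPM, lay above as did *Cntnap2*, whereas *Cntn2* lay below. The summed glia markers overlapped between the sets, at 1130 to 1310 against 1220 to 1350 CPM, as did the neuron markers, at 9470 to 10100 against 9940 to 10400 CPM.

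**Figure D5:**
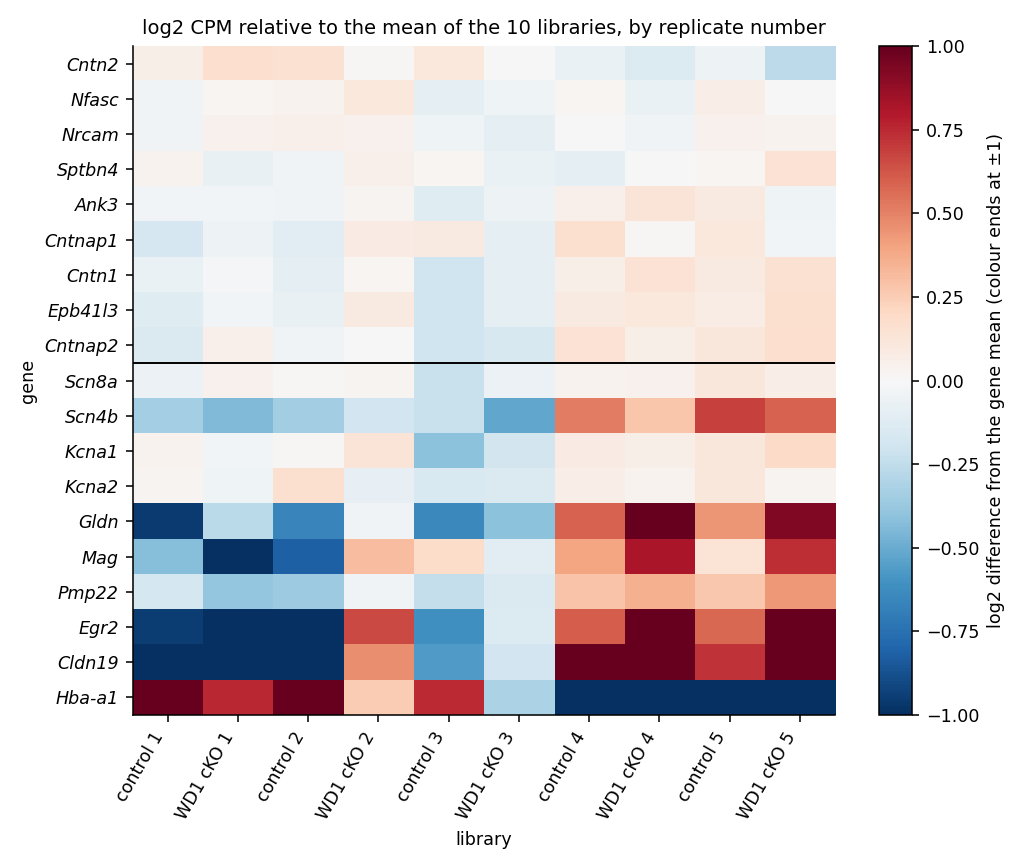
Log2 CPM of the 9 genes (above the black line) and of 10 other genes relative to the gene's mean over the 10 libraries, in colours from blue (lower) to red (higher) that end at ±1, with libraries ordered by replicate number (horizontal axis) and genes on the vertical axis. The 4 libraries numbered 4 and 5 are red for *Scn4b*, *Gldn*, *Pmp22* and *Cldn19* and blue for the globin gene *Hba-a1*. They are paler red for *Cntn1* and *Cntnap2* and paler blue for *Cntn2*. They are also red for *Egr2* and *Mag* and pale red for *Epb41l3*, *Scn8a*, *Kcna1* and *Kcna2*, for which the libraries numbered 1 to 3 overlap them.

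Within the libraries numbered 1 to 3 alone (3 against 3), 0 of 9 genes had an adjusted or an unadjusted p below 0.05 by the edgeR quasi-likelihood test, where 0.0114% and 4.88% of all genes tested did. The lowest was that of *Epb41l3* (log2 fold change 0.12 ± 0.0572, SE; unadjusted p = 0.0667), followed by *Cntn1* (0.0879 ± 0.0518, unadjusted p = 0.126). *Cntn2* stood at -0.0439 ± 0.055 and *Cntnap2* at 0.0876 ± 0.0621. The estimates of *Nrcam*, *Sptbn4* and *Cntnap1* changed sign there, at 0.0006, -0.0332 and 0.0352. Without control replicate 3, the library with spinal cord markers, the count was again 0 of 9 at either threshold (0.0345% and 4.54% of all genes tested), with a lowest unadjusted p of 0.374.

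Because the ganglia mix neurons and glia, each gene was also set against the mean log2 CPM of the neuron markers minus that of the glia markers, which ranged from 2.81 to 3.17 over the 10 libraries. Pearson's r ran from -0.445 (*Sptbn4*) to 0.542 (*Cntn2*), and none of the 9 relations passed (permutation p from 0.107 to 0.697, adjusted over 9 relations from 0.588 to 0.697). By Spearman's rho the strongest was *Nrcam*, at 0.661 (permutation p = 0.0441, adjusted p = 0.397). With the farthest 2 libraries, *WD1* cKO replicates 1 and 4, left out, r was 0.243 for *Cntn2* and -0.458 for *Sptbn4*. Centring the values within each group gave 0.483 and -0.417.

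For 8 of the 9, the gene with the most similar profile was sought among 10765 others with a mean of at least 10 CPM, as a description over 10 libraries. Pearson's r was 0.986 for *Cntnap1* with *Ncdn*, 0.984 for *Cntn1* with *S100b*, 0.984 for *Cntn2* with *Islr2* and 0.983 for *Epb41l3* with *Cacna2d1*. It was 0.973 for *Cntnap2* with *Emb*, 0.948 for *Ank3* with *Atp2c1*, 0.887 for *Nfasc* with *Trabd* and 0.871 for *Nrcam* with *Epb41l1*. The genes with the wider spread between libraries thus had the closer matches, and the steadier nodal genes the looser ones.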

How the data were processed

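Per the paper's methods and the submitters' processing notes, the authors prepared stranded mRNA libraries, aligned reads with STAR 2.7.8a to GRCm39 and counted them per gene with featureCounts 2.0.1. They deposited raw read counts, 1 file per library. The strand setting and the treatment of reads that map to several places are not given in the sources used here. Symbols, chromosomes and exon lengths came from the GENCODE annotation of GRCm38, matched by identifier for 52081 of 55414 genes. Promoters came from RefSeq (GRCm38.p6).

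Genes reaching 10 counts in 5 or more libraries were scaled by TMM and tested with edgeR 4.0.16 (quasi-likelihood) in R 4.3.3, with Benjamini-Hochberg adjustment over 17490 genes and a threshold of 0.05. DESeq2 1.42.0 was an alternative. CPM are counts per library size scaled by TMM. Single genes were also compared by an exact two-sided permutation test of log2 CPM (prior count 1). Correlations with the marker levels had 100000 resamples. Replicates within a group differed by more than counting noise (chi-square per degree of freedom 4.33 to 15.7). The paper calls the controls littermates, but nothing in the sources says which embryos share a litter. The p-values therefore measure the spread between these libraries. The members and lists were chosen with earlier results of these data known. Of each list, the text names genes with an unadjusted p below 0.05 and the most and least abundant per length in control, and the gene most similar to a member; other names were chosen after their values were seen. A few of the named-gene results are not reported here. The test was run on simulated counts of 17305 genes for this comparison. It recovered 36.7% of genes changed by 0.3 on the log2 scale, 56% at 0.5 and 88% at 1. Intervals are 95% intervals.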

Additional observations from a re-analysis of the deposited data

Results flagged for a closer look

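The count ratio of *Cntnap1* to *Cntnap2* in control replicate 3 was 1.87, apart from 1.45 to 1.55 in the other 4 control libraries. The gap to its neighbour was 0.767 of the range of the group, above the critical value of 0.71 for 5 libraries. It was the only one of 30 groups examined (18 of levels and 12 of ratios) to stand out in this way, where chance gives about 1.5. In that library *Cntnap1* was at 291 CPM, within the control range of 243 to 306, and *Cntnap2* at 156 CPM was the lowest of the 10 libraries. It is also the library in which the 5 spinal cord markers summed to 12.5 CPM. Their part in the ratio was not tested.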

How the results depend on the processing

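None of the 9 genes and none of the listed pathway genes was called under the main test or any of 18 alternatives, and the lowest adjusted p of any of the 9 was 0.631. *Cntn1*, *Epb41l3*, *Cntn2* and *Cntnap2* kept the direction of their estimates throughout, but without 1 library their size ran from 0.0437 to 0.115, 0.0571 to 0.128, -0.132 to -0.0275 and 0.0011 to 0.0873. The count over all genes, 7, was 4 with a minimum mean count of 100, 19 with DESeq2's Wald test, 4 with the neuron minus glia level as a covariate and 2 in the libraries numbered 1 to 3 (added after seeing the data). It was 3 to 6 when a library was left out. Estimates near 0 changed sign. Leaving out 1 library gave -0.0259 to 0.0183 for *Nfasc*, -0.0193 to 0.0153 for *Nrcam*, -0.0174 to 0.0409 for *Ank3*, -0.0127 to 0.0459 for *Sptbn4* and -0.0817 to 0.0006 for *Cntnap1*. *Nrcam* was 0.0032 without a filter and 0.0118 with the covariate, where *Ank3* was -0.002. In the libraries numbered 1 to 3, *Nrcam* was 0.0006, *Sptbn4* -0.0332 and *Cntnap1* 0.0352. The correlation with the marker level changed sign for *Ank3* (0.249) and *Cntn1* (0.0591) without the farthest 2 libraries. The cause was not tested.

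In the labels, the libraries of the groups share replicate numbers only. Deviations of same-numbered libraries had r from 0.0404 to 0.39, with a median of 0.329. For other numbers r was -0.368 to 0.371, with a median of -0.141. Not every same-numbered pair passed 0.1. With the replicate number as a block, 8 genes were called in all (0.0457%), 1241 had an unadjusted p below 0.05 (7.1%) against 787, and 133 passed the study's cut-off against 67. Of the 9 genes, 0 were called, and *Epb41l3* (unadjusted p = 0.0187, adjusted p = 0.631, edgeR) and *Cntn1* (unadjusted p = 0.0247, adjusted p = 0.652, edgeR) had an unadjusted p below 0.05. Both were higher in the *WD1* cKO library of all 5 numbers, as were 4.45% of all genes tested. Each of the 9 genes had at least 1120 reads in every library.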
